A study of Mus musculus with 18 samples.

Results

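The mouse mitochondrial genome encodes 37 annotated genes, and 35 of them had a row in a table of 34932 genes. They were taken as all rows whose Ensembl identifier carries a symbol beginning with mt- in GENCODE release M21. They comprise 13 mRNAs, 2 rRNAs and 20 of the 22 annotated tRNAs. The tRNA genes mt-Td and mt-Tk were not analysed here. Of the mRNAs, 7 belong to complex I (mt-Nd1, mt-Nd2, mt-Nd3, mt-Nd4, mt-Nd4l, mt-Nd5 and mt-Nd6), 1 to complex III (mt-Cytb), 3 to complex IV (mt-Co1, mt-Co2 and mt-Co3) and 2 to complex V (mt-Atp6 and mt-Atp8). Of them 12 are annotated on the plus strand, while mt-Nd6 alone is on the minus strand together with 8 of the 20 tRNAs.

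The mitochondrial genome is a small circle of DNA inside the organelle. Each strand is transcribed by a dedicated RNA polymerase into long precursors, which are cut at the tRNAs that punctuate them to release mRNAs, rRNAs and tRNAs. The mRNAs encode core subunits of respiratory complexes I, III and IV and of the ATP synthase, and the rRNAs belong to the mitochondrial ribosome. All other subunits and all transcription and processing factors are made from nuclear genes and imported. Liver and neurons depend on oxidative phosphorylation.

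RNA was sequenced from mouse liver, brain and testis in 6 groups of 3 libraries, with the stress group of each tissue from mice under chronic restraint stress (repeated physical confinement) and the control group labelled only as control. The sources used here give neither strain, age nor duration of restraint. Sample codes tie the liver, brain and testis libraries of a replicate number to 1 animal, so the 18 libraries came from 3 stress and 3 control animals and the tissues are not independent groups. The extraction text names hippocampus where the sample labels say brain, so the tissue is called brain. The description of stress brain replicate 3 bears a code with the control prefix, while its title, treatment and column name say stress, and it was kept with the stress libraries.

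Library totals ranged from 27.85 to 36.5 megacounts. Hepatocyte markers summed to between 73869 and 97973 counts scaled per megacount of the library (CPM) in liver and to no more than 3.93 CPM elsewhere. Neuron markers summed to between 10236 and 12046 CPM in brain, and those of germ cells reached between 13946 and 17646 CPM in testis, above every library of the other tissues. Stress testis replicate 2 stood apart from the other testis libraries: its mean Spearman correlation with them across genes was 0.979, against at least 0.990 for each of the others. Its Leydig and Sertoli cell markers summed to 2053 CPM, against 1202 to 1341 CPM in the other 5, and its macrophage markers to 144 CPM, against 77.1 to 87.1 CPM. Testis results are therefore also given without it.

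The mRNAs fell into 2 sets by level per gene length, expressed as TPM (counts corrected for gene length and scaled to the same sum in every library). The 7 mRNAs mt-Nd1, mt-Nd2, mt-Co1, mt-Nd4, mt-Nd5, mt-Nd6 and mt-Cytb averaged at least 2822 TPM over the 18 libraries, up to 23576 TPM for mt-Co1. They are called counted at depth below, by a threshold of 1000 TPM. All 13 mRNAs and both rRNAs passed the filter on low counts in every comparison. The other 6, mt-Co2, mt-Atp8, mt-Atp6, mt-Co3, mt-Nd3 and mt-Nd4l, averaged between 33.1 and 185 TPM. The lowest mRNA of the first set stood 15.3-fold above the highest of the second. These 6 genes lie next to each other in 1 run of the mitochondrial genome, between mt-Co1 and mt-Nd4, although all are cut from the same plus-strand precursor as their neighbours.

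Of these 6 genes, 5 have a near-complete copy among annotated pseudogenes of chromosome 1. Transcript sequences were compared at 95% identity or more over at least 50 bases. Gm28661 matched mt-Co2 over 681 bases, Gm10925 matched mt-Atp6 over 678 bases, Gm28437 matched mt-Co3 over 783 bases and Gm10222 matched mt-Nd4l over 294 bases, each without a differing base. Gm28438 matched mt-Nd3 over 345 bases with 1 substitution, T3C, counted from the first base of mt-Nd3, with the base of mt-Nd3 given first. Of 2 further pseudogenes of this block, Gm29216 aligned to 31.8% of mt-Co1 with 6 differing bases, and Gm28439 matched 63.6% of mt-Nd4 without a difference. A read that lies wholly inside such a match cannot be assigned to mitochondrial or nuclear DNA by its sequence. The first 90 bases of mt-Nd3 and of its copy are shown because they hold the sole difference, and mt-Nd4l is shown whole because its copy is identical, with capitals marking bases that differ between the pair or lie beyond the end of the copy (GENCODE M21 transcripts, build GRCm38, each in its 5′ to 3′ direction).
mt-Nd3: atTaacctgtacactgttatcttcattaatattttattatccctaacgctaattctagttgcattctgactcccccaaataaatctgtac
Gm28438: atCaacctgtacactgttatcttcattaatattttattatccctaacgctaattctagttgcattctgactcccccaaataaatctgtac
mt-Nd4l: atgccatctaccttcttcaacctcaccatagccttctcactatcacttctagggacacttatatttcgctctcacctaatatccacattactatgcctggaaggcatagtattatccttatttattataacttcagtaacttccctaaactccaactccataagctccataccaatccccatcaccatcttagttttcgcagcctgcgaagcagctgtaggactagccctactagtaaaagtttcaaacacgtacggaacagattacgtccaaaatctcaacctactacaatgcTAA

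Counts were recorded on both sides of these pairs. Summed over all libraries, mt-Atp6 had 30855 counts and Gm10925 had 16687. For mt-Co2 and Gm28661 the sums were 19608 and 12498, for mt-Co3 and Gm28437 they were 15605 and 9378, for mt-Nd4l and Gm10222 they were 4563 and 1444, and for mt-Nd3 and Gm28438 they were 10652 and 1569. By contrast mt-Nd4 had 1798725 counts and Gm28439 had 6949, and mt-Co1 had 8898910 counts and Gm29216 had 8416. In stress testis replicate 2 both mt-Nd3 and Gm28438 had 0 counts, which allows up to 3. How the authors' counting treated reads with several equally good positions is not given in the sources used here. Changes of these 6 mRNAs are therefore uncertain, and adding each copy's counts to its partner changed no count of called mRNAs in any comparison.

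The gene mt-Atp8 also had few counts, 1677 over all libraries, but no annotated copy was found for it. It lies between mt-Co2 and mt-Atp6 and shares its last 43 bases, in capitals, with the start of mt-Atp6.
mt-Atp8: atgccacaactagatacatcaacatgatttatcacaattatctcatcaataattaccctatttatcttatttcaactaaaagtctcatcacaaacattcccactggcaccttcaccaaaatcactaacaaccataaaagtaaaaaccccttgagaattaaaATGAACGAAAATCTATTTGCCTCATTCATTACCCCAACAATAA
No match was found for mt-Nd1, mt-Nd6, mt-Cytb or the 2 rRNAs. Over its whole length mt-Co1 matched Gm13340 on chromosome 2 at 97.6% identity, mt-Nd2 matched Gm13339 over 49.1% of its length at 96.7%, and mt-Nd5 matched Gm4076 over 52.3% at 95.2%. Of 75-base windows, 61.5% of those in mt-Nd4, 39.8% of those in mt-Co1, 5.71% of those in mt-Nd2 and 0.457% of those in mt-Nd5 occurred in a nuclear transcript. The plot of levels in genome order sets these shares beside the TPM of each gene. The listed pseudogenes Gm10221, Gm10288 and Gm11808 matched no mitochondrial transcript at these settings.

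**Figure D1:**
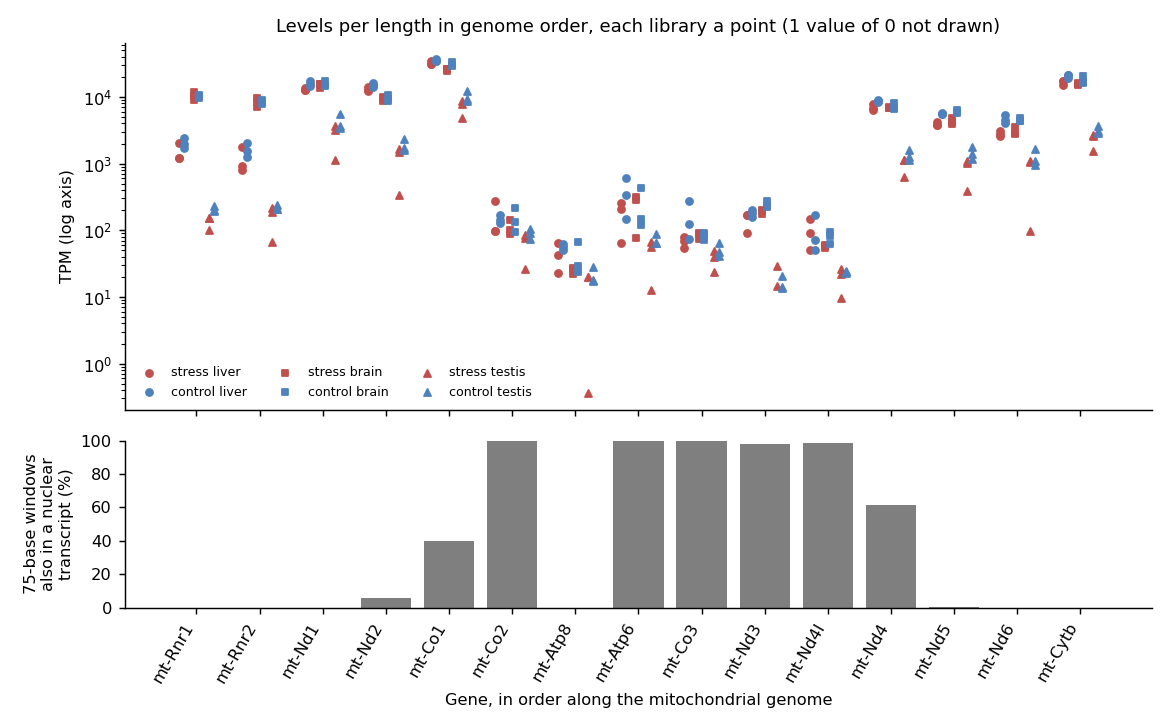
Upper panel, TPM of the 15 mRNAs and rRNAs in every library (log axis, red stress and blue control, circles liver, squares brain, triangles testis) in genome order. Lower panel, percent of each gene's 75-base windows also present in a nuclear transcript. The run from mt-Co2 to mt-Nd4l sits below 1000 TPM in every library, and 5 of its 6 genes have over 97% of their windows in a nuclear copy.

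Among the mRNAs counted at depth, mt-Co1, the catalytic subunit of cytochrome c oxidase, was the most abundant in every library. It had 31166, 31384 and 34009.7 TPM in stress livers, against 36536, 34905 and 34351 TPM in control livers. In brain it had 26051, 26370.4 and 24717 TPM in stress libraries, against 29519, 30494 and 33510.0 TPM in control libraries. In testis the values were 7773, 4819.5 and 8692 TPM under stress, against 12111, 8602 and 9357 TPM in control. It ranked first of all genes by TPM in each brain library, between 2 and 3 in liver and between 4 and 7 in testis. In liver and brain the next in mean level was mt-Cytb, the catalytic core of complex III, with 17486, 15309.7 and 17188 TPM in stress livers, against 21010.4, 21211 and 19262 TPM in control livers. In testis mt-Nd1, a membrane subunit of complex I, came next, with a mean of 2653 TPM in stress testes and 4198 TPM in control testes, beside 2285 TPM in stress testes and 3211 TPM in control testes for mt-Cytb. Only in stress testis replicate 2 was mt-Cytb above mt-Nd1. In the mean of each group mt-Nd1 and mt-Nd2 stood above mt-Nd4, mt-Nd5 and mt-Nd6. The levels of mt-Nd4 and mt-Co1 carry the uncertainty over reads shared with nuclear copies, so their places in this order do too.

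The makeup of this set differed by tissue. In control testis mt-Co1 supplied 42.3, 43.5 and 43.4% of the TPM of the 7 mRNAs, whereas it supplied 33.2, 33.8 and 33.2% in control liver and 34.6, 34.5 and 33.0% in control brain. The share of mt-Cytb was 12.8, 14.4 and 14.4% in control testis, 19.1, 20.5 and 18.6% in control liver and 18.7, 19.0 and 20.5% in control brain. Testis was thus higher in mt-Co1 and lower in mt-Cytb than every liver and brain control library. The share of mt-Nd2 also separated the tissues, with 13.7, 13.5 and 15.6% in control liver, 10.2, 10.4 and 10.3% in control brain and 8.24, 8.12 and 7.89% in control testis.

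Mitochondrial transcripts took 6.32, 5.67 and 6.30% of all counts in stress livers, against 7.55, 7.04 and 6.90% in control livers. In brain the share was 3.84, 3.60 and 3.60% under stress, against 3.92, 3.96 and 4.64% in control. In testis it was 1.06, 0.605 and 1.03% under stress, against 1.46, 1.06 and 1.14% in control. The stress and control groups did not overlap in liver or brain, although the nearest brain libraries differed by little, and they overlapped in testis. Complex IV mRNAs took 2.57, 2.49 and 2.74% of counts in stress livers, against 3.002, 2.79 and 2.68% in control livers, with overlap. Complex I mRNAs took 2.41, 2.15 and 2.38% in stress livers, against 3.06, 2.73 and 2.81% in control livers, without overlap. Nearly all of the complex IV share was mt-Co1, with a mean of 2.814% of counts in control livers, beside 2.826% for complex IV. These shares thus set mt-Co1 beside the complex I mRNAs and do not compare whole complexes. Counting error was small, with a 95% Wilson interval of at most 0.0088 percentage points to either side of a share, and covers neither library preparation nor animals. In bulk tissue, fewer cells of a mitochondria-rich type and less mitochondrial RNA per cell cannot be told apart.

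**Figure D2:**
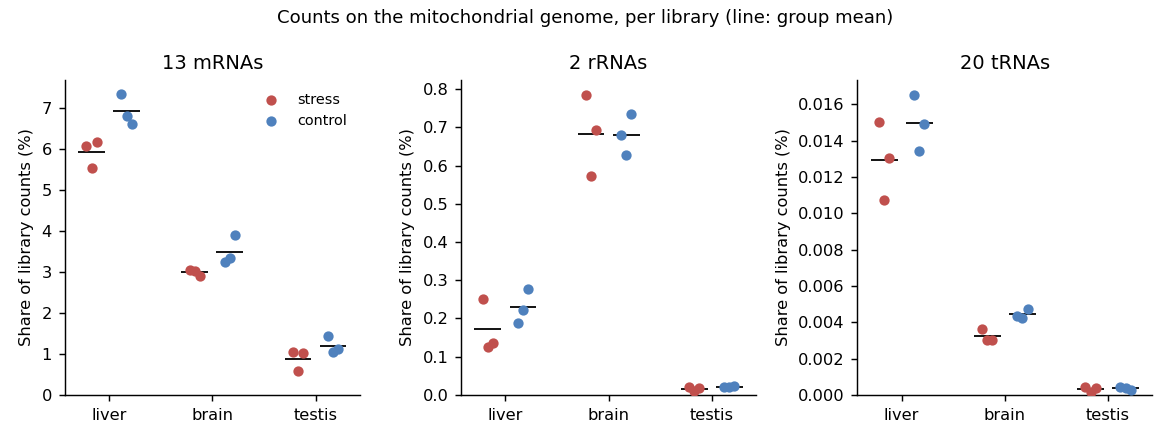
Percent of a library's counts on the 13 mRNAs, 2 rRNAs and 20 tRNAs in each tissue, with stress libraries (red) left of control libraries (blue), points for libraries and lines for group means. The mRNA share of stress livers averaged 5.92%, with all 3 below every control liver, while the rRNA share of brain averaged 0.683% under stress and 0.681% in control.

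In liver, 11 of the 13 mRNAs had lower values under stress and none passed the test. The gene with the lowest p was mt-Nd6, a complex I subunit and the sole mRNA of the minus strand. It had 3054, 2582 and 2737 TPM in stress livers, against 5309, 4458 and 4072 TPM in control livers. Every stress liver lay below every control liver, and the log2 fold change was -0.74 with an SE of 0.16 (edgeR quasi-likelihood test on counts, Benjamini-Hochberg adjusted p = 0.0544). Its neighbour mt-Nd5, another membrane subunit of complex I, had 3844, 3773 and 4206 TPM in stress livers, against 5706, 5599 and 5581 TPM in control livers. These groups did not overlap either, and the difference was -0.52 ± 0.12 (log2, SE, edgeR adjusted p = 0.0656).

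The median log2 fold change of the 13 mRNAs in liver was -0.33, beside -0.0093 over all 14253 genes tested. None of the 13 was called by edgeR, where 1.63% of all genes were. At an unadjusted p under 0.05 there were 5 mRNAs, beside 17.2% of all genes. DESeq2 called 2 (mt-Nd5 and mt-Nd6), beside 6.01% of all genes, and limma on log2(TPM + 0.5) called 0. On the scale of normalised CPM, stress and control groups did not overlap for 6 mRNAs, all lower in stress livers, namely mt-Nd1, mt-Nd2, mt-Nd4, mt-Nd5, mt-Nd6 and mt-Cytb. Over all genes, 11.1% were lower in this way. The complex IV mRNA mt-Co1 had a log2 fold change of -0.14 ± 0.12 (SE), and mt-Cytb had -0.31 ± 0.13.

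Among the mRNAs with few counts in liver, mt-Co3 had the largest difference, at -1.25 ± 0.42 (log2, SE, edgeR adjusted p = 0.165). It had 1022, 710 and 847 counts in stress livers, against 3963, 1693 and 927 counts in control livers, so that control replicate 1 was far above the rest and the groups overlapped. The other 5 ran from -1.03 ± 0.54 for mt-Atp6 over -0.37 for mt-Atp8, -0.35 for mt-Nd3 and 0.0063 for mt-Nd4l to 0.087 for mt-Co2, all with overlapping groups. Macrophage markers moved in the same tissue: 8 of the 12 were called higher in stress livers, where 1.63% of all genes were called in either direction. All 12 passed the filter on low counts, and their sum was 204 to 253 CPM in stress livers, against 101 to 116 CPM in control livers. Of 10 endothelium markers 8 had lower values and none was called (3 at an unadjusted p under 0.05, beside 17.2% of all genes). The sums of these markers were 49.5 to 80.7 CPM in stress livers, against 61.4 to 101.9 CPM in control livers. Of 9 RNAs listed as retained in the nucleus 8 were tested and 5 had higher values. Of these 5, 3 had an unadjusted p under 0.05, beside 17.2% of all genes, and Meg3 was called (2.03 ± 0.41, SE, edgeR adjusted p = 0.0476). The sums of this list overlapped, at 1220.4 to 1258.1 CPM in stress livers, against 972.9 to 1316.4 CPM in control livers. Of 10 hepatocyte markers, all tested, 4 had higher and 6 lower values and 1 was called lower, beside 1.63% of all genes called in either direction. Their sums overlapped, at 73869 to 94296 CPM in stress livers, against 82047 to 97973 CPM in control livers. The part of any of these lists in the mitochondrial values was not tested.

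In brain, mt-Nd5 and mt-Nd6 again had the lowest p among the mRNAs. There were 4859, 4163 and 3865 TPM of mt-Nd5 in stress brains, against 5702, 5961 and 6348 TPM in control brains, or -0.50 ± 0.10 (log2, SE, edgeR adjusted p = 0.387). For mt-Nd6 the levels were 3583, 2784 and 2834 TPM in stress brains, against 4373, 4287 and 4787 TPM in control brains, or -0.57 ± 0.12 (log2, SE, edgeR adjusted p = 0.387). For both genes each stress brain lay below each control brain. The values of mt-Co1 gave -0.30 ± 0.09 (SE, edgeR adjusted p = 0.532), while mt-Nd1, mt-Nd2 and mt-Nd4 lay between -0.05 and -0.08 with overlapping groups. 

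No brain mRNA passed the test, and the edgeR fit called 0.00566% of all 17668 genes, which is 1 gene, or 22 genes with replicate number as a block, with the lowest adjusted p of an mRNA then 0.0808. At an unadjusted p under 0.05 there were 5 mRNAs, beside 7.54% of all genes. DESeq2 called 2 (mt-Nd5 and mt-Nd6), beside 0.775% of all genes, and limma called 0. The median log2 fold change of the 13 mRNAs was -0.30, beside -0.0033 over all genes, and 12 had lower values under stress. This median rests on 1 library. Without control brain replicate 3, which had the highest mitochondrial share, it was -0.06 with 8 of 13 lower, whereas mt-Nd5 then had -0.44 and mt-Nd6 had -0.50. On normalised CPM the groups did not overlap for 5 mRNAs, all lower in stress (mt-Nd5, mt-Nd6, mt-Co1, mt-Nd3 and mt-Nd4l), beside 6.64% of all genes. Choroid plexus markers stood out in the same libraries, with 7 of 10 tested, all 7 at higher values in stress brains, 6 at an unadjusted p under 0.05 and none called. Their sums were 17.7, 541 and 362 CPM in stress brains, against 8.98, 14.7 and 15.8 CPM in control brains, and their part in the result was not tested. Only 6 of the 10 passed the filter on low counts in control liver against control brain. Not all 7 can therefore have passed through control brains. The direction of a marker that passed only through stress brains was fixed by the filter.

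In testis all 13 mRNAs had lower values under stress, at a median log2 fold change of -0.47 beside 0.014 over all 19915 genes. None was called, where edgeR called 0.0201% of all genes, and DESeq2, which called 0.306% of all genes, and limma each called 0. Unadjusted p was under 0.05 for 2 mRNAs, a share near the 11.7% of all genes. On log2(TPM + 0.5) the median was -0.79, beside -0.068 over all genes. Stress testis replicate 2 was low in most of these genes. It had 703 counts of mt-Nd6, against 7117 and 7517 counts in the other stress testes and 9561, 5563 and 7052 counts in control testes. For mt-Nd2 it had 4887 counts, against 20650 and 22927 in the other stress testes and 27643, 18588 and 21843 in control testes. Without this library the median was -0.19, 11 of 13 mRNAs had lower values, and the log2 fold change of mt-Nd6 was -0.16 in place of -0.66. On normalised CPM the groups did not overlap for mt-Co1 and mt-Cytb, both lower in stress testes, beside 10.7% of all genes, while on TPM mt-Co1 overlapped. Germ cell markers summed to 15906, 17646 and 15743 CPM in stress testes, against 14391, 13946 and 14225 CPM in control testes, without overlap, with or without replicate 2. All 10 were tested, 5 had higher and 5 lower values and none was called, and their part in the mitochondrial values was not tested.

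**Figure D3:**
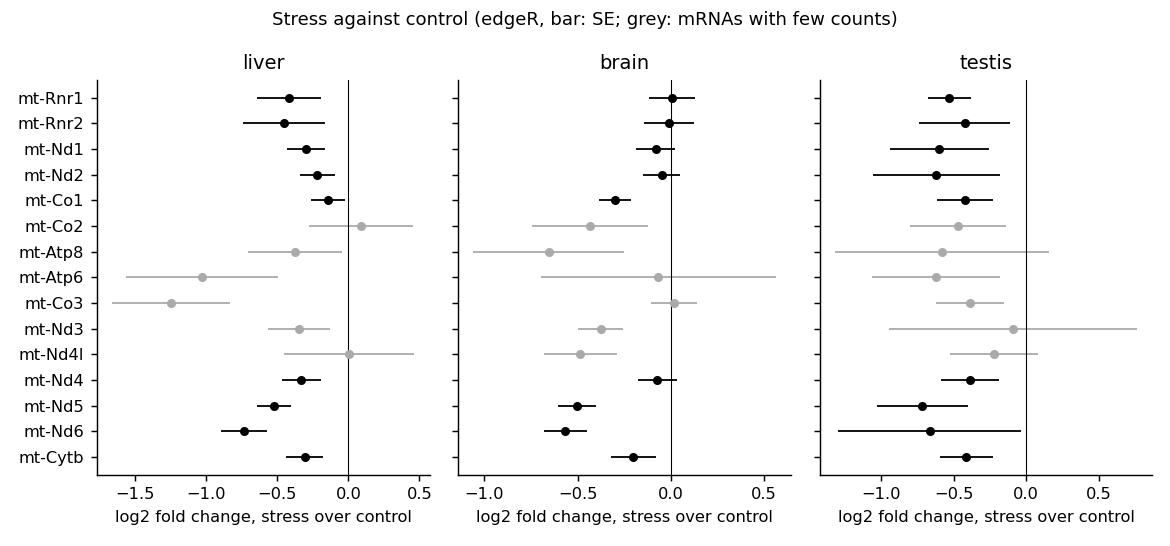
Log2 fold change of stress over control for the 13 mRNAs and 2 rRNAs in genome order, from the edgeR fit of each tissue, with bars for the SE, black for genes counted at depth and grey for mRNAs with few counts. In liver and brain mt-Nd5 and mt-Nd6 lie farthest to the left among the black mRNA points (-0.52 and -0.74 in liver, -0.50 and -0.57 in brain), while in brain both rRNAs sit at 0.

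Ratios between genes within a library remove the library's scaling. The pair mt-Nd5 and mt-Nd1 was chosen after its values were seen, so its ratio restates the difference above and no p is given for it. The ratio of mt-Nd5 to mt-Nd1 in TPM was 0.309, 0.268 and 0.285 in stress brains, against 0.395, 0.400 and 0.365 in control brains. In liver it was 0.282, 0.302 and 0.329 under stress, against 0.332, 0.386 and 0.354 in control, and in testis 0.338, 0.338 and 0.287, against 0.320, 0.347 and 0.374. The groups were apart in brain and, narrowly, in liver, and overlapped in testis. The minus-strand mRNA set against the mean of the 6 plus-strand mRNAs counted at depth gave 0.212, 0.190 and 0.184 in stress livers, against 0.304, 0.270 and 0.246 in control livers. In brain this ratio was 0.276, 0.211 and 0.231 under stress, against 0.324, 0.306 and 0.297 in control. In testis it was 0.362, 0.0667 and 0.351 under stress, against 0.363, 0.307 and 0.322 in control.

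The strand ratio, with mt-Nd6 alone for the minus strand, was lower in every stress liver than in every control liver, and likewise in brain. In stress testis only replicate 2 was low. Minus-strand tRNAs took 0.0106 to 0.0149% of all counts in stress livers, against 0.0133 to 0.0163% in control livers, with overlap. In brain they took 0.00296 to 0.00354% under stress, against 0.00412 to 0.00461% in control, without overlap. A single gene, mt-Tp, supplied 92.9% of all tRNA counts in liver and 86.4% in brain, so these shares are mostly those of mt-Tp. A difference of the minus strand as a whole was not tested. The ratio of mt-Nd6 to mt-Nd5 overlapped between groups in all 3 tissues, with means of 0.710 in stress livers, against 0.819 in control livers, and 0.713 in stress brains, against 0.747 in control brains. The strand ratio had a two-sided exact permutation p of 0.1 in liver and in brain, the smallest that 3 against 3 libraries can give, or 0.225 after Benjamini-Hochberg adjustment over the 9 comparisons of ratios computed. These 9 include the ratio of mt-Nd5 to mt-Nd1, which was chosen after its values were seen, so the adjusted p depends on that choice. The genes mt-Nd5 and mt-Nd6 face each other on opposite strands and overlap by 14 bases at their ends. The kit keeps strand, but the strand setting of the counting is not given, so reads antisense to mt-Nd6 cannot be told apart from its own.

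**Figure D4:**
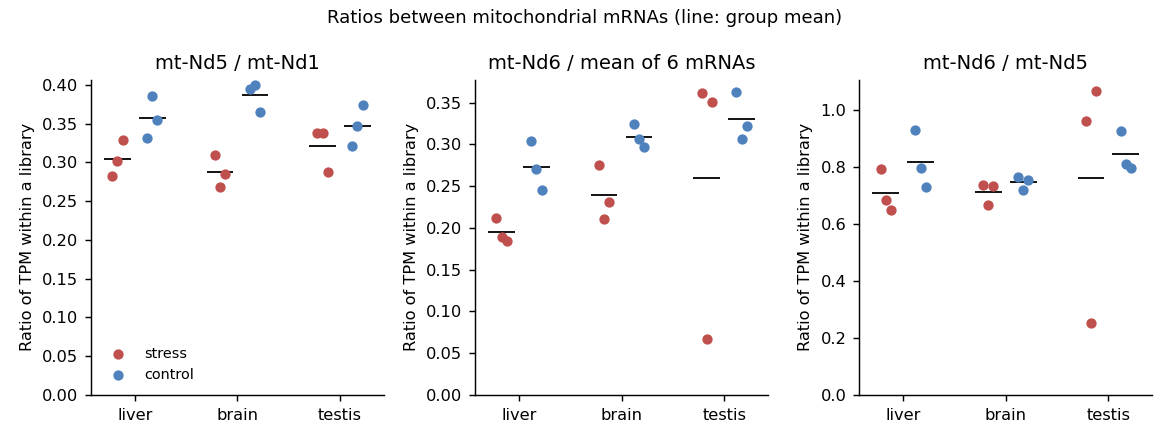
Ratios of TPM within each library for mt-Nd5 over mt-Nd1, mt-Nd6 over the mean of the 6 plus-strand mRNAs counted at depth, and mt-Nd6 over mt-Nd5, with stress (red) left of control (blue), points for libraries and lines for group means. In liver and brain the red points of the first 2 panels lie below all blue ones, and in testis 1 stress library lies at 0.0667 in the middle panel.

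The rRNAs mt-Rnr1 (12S) and mt-Rnr2 (16S) behaved unlike the mRNAs across tissues. There were 11781, 8834 and 10398 TPM of mt-Rnr1 in stress brains and 10185, 9534 and 10805 TPM in control brains. In liver it had 2061, 1219.8 and 1221 TPM in stress libraries and 1690.2, 1946 and 2395 TPM in control libraries, and in testis 155, 101 and 150.0 TPM in stress libraries and 227, 199.7 and 194 TPM in control libraries. Stress and control overlapped in liver and brain for both rRNAs. In brain the log2 fold changes were 0.0053 ± 0.12 for mt-Rnr1 and -0.0098 ± 0.13 for mt-Rnr2 (SE). In testis the groups did not overlap for mt-Rnr1, which had -0.53 ± 0.15 (SE, edgeR adjusted p = 0.422), and without stress testis replicate 2 it had -0.39. The mean of the 2 rRNAs over the mean of the 7 mRNAs counted at depth ran from 0.676 to 0.921 in brain, from 0.0813 to 0.149 in liver and from 0.0535 to 0.0728 in testis. The libraries came from total RNA, and whether and how rRNA was removed is not given in the sources used here, so the rRNA levels cannot be told apart from the yield of that step.

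Counts on tRNA genes were few and fell almost wholly on genes annotated on the minus strand. These genes held 99.0% of the 27266 tRNA counts in liver, 97.5% of the 7748 in brain and 92.4% of the 634 in testis. The strand setting of the counting is not given, so reads antisense to these genes cannot be told apart from their own. The proline tRNA mt-Tp, the last gene before the control region, had 32499 counts over all libraries. It supplied 92.9% of the tRNA counts in liver, 86.4% in brain and 73.8% in testis. Next came the glutamate tRNA mt-Te, which lies beside mt-Nd6, with 1207 counts. In testis, 7 of the 20 tRNAs had no count and 19 had fewer than 100. Both sequences are given in their own sense, with the anticodon in capitals, read as the centre of the 7-base loop closed by 5 pairs nearest the middle of the gene.
mt-Tp: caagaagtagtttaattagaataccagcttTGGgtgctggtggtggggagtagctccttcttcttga
mt-Te: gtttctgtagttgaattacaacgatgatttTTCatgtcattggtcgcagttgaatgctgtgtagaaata
Precursors, processed ends and mature tRNA were not separated by this counting.

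For mt-Te there were 88, 74 and 69 counts in stress livers, against 192, 172 and 140 counts in control livers. The groups did not overlap, and the log2 fold change was -1.04 ± 0.23 (SE, edgeR adjusted p = 0.0534). The adjusted p was 0.0036 with DESeq2 and 0.0171 with limma on log2(TPM + 0.5). In brain mt-Te had 81, 37 and 50 counts under stress, against 75, 92 and 92 counts in control, with overlap. For mt-Tp there were 978, 930 and 851 counts in stress brains, against 1280, 1153 and 1501 counts in control brains, without overlap (-0.46 ± 0.10, SE, edgeR adjusted p = 0.387). In liver the same gene had 4378, 3349 and 3703 counts under stress, against 5350, 4166 and 4392 counts in control, with overlap (-0.20 ± 0.15, SE). The filter on low counts kept 8 tRNAs for liver, 5 for brain and 1 for testis. None of them was called by edgeR, which called 1.63, 0.00566 and 0.0201% of all genes in liver, brain and testis. At an unadjusted p under 0.05 there was 1 in liver, 1 in brain and 0 in testis, beside 17.2, 7.54 and 11.7% of all genes.

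**Figure D5:**
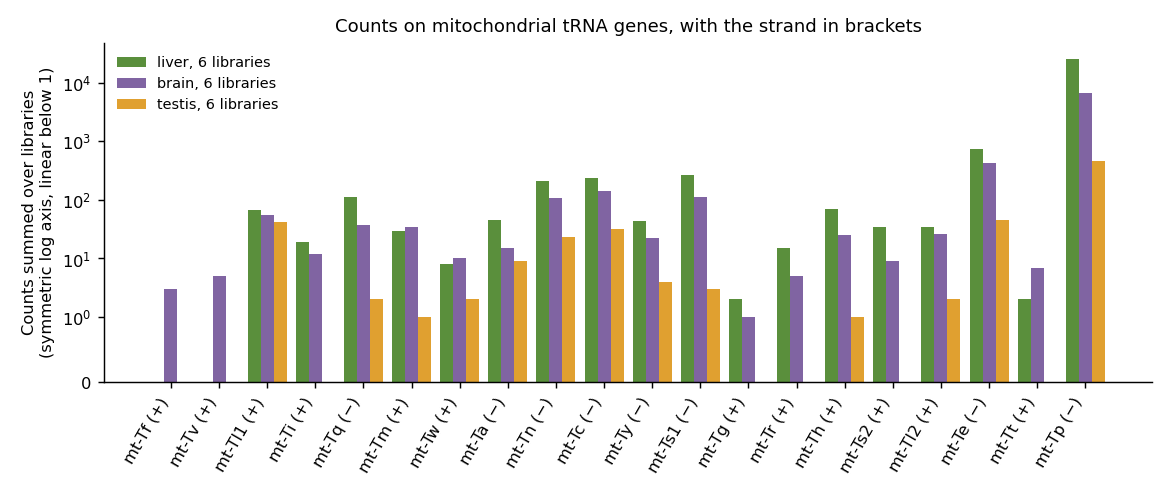
Counts on each of the 20 tRNA genes summed over the 6 libraries of liver, brain and testis, in genome order with the annotated strand in brackets (symmetric log axis). The bars of mt-Tp reach 25338 counts in liver, 6693 in brain and 468 in testis, above those of every other tRNA.

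In control animals, all 13 mRNAs were higher in liver than in brain and all 13 passed, beside 34.4% of all 17849 genes called higher. The median log2 difference was 2.03, beside -0.33 over all genes, and ran from 1.38 for mt-Nd3 to 2.79 for mt-Co3. This size differed between the settings of the fit, and the cause was not tested. Over all genes the count fit called 6143 higher and 8147 lower. By limma on log2(TPM + 0.5) the calls were 2506 higher and 13537 lower. With library size alone as the scaling they were 3683 higher and 11387 lower. On log2(TPM + 0.5) the median of the mRNAs was 0.18, beside -1.73 over all genes, and limma called mt-Nd2 higher and mt-Nd3 lower in liver, with mt-Nd5 also turned to -0.092. With library size alone, the median was 0.99 and 11 of 13 were called. Relative to the median of all genes, the mRNAs were higher in liver by 2.36 in the count fit and by 1.91 on the TPM scale. The rRNAs went the other way, with -0.52 ± 0.16 for mt-Rnr1 and -0.55 ± 0.19 for mt-Rnr2 (SE, edgeR adjusted p = 0.0174 and 0.0265), beside 45.6% of all genes called lower. The size of the rRNA differences varied between settings too, with -1.55 and -1.59 by library size alone and -2.35 and -2.40 on log2(TPM + 0.5).

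Control testis was lower than control liver for all 13 mRNAs, each of which passed, beside 34.5% of all 20079 genes. The median was -3.10, beside 0.93 over all genes, and mt-Nd3 had the largest difference at -4.63 ± 0.19 (SE, edgeR adjusted p = 1.75e-08). There were 13.5, 13.9 and 20.4 TPM of mt-Nd3 in control testes, against 184, 159 and 198 TPM in control livers. All 13 also passed as lower on log2(TPM + 0.5), at a median of -1.94 beside 1.41 over all genes. Over all genes the count fit called 10844 higher and 6927 lower, and limma on TPM called 13417 higher and 4588 lower.

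Against control brain, control testis was lower for 9 of 13 mRNAs that passed, beside 41.2% of all 21087 genes, at a median of -1.15 beside 0.20 over all genes. The 7 mRNAs counted at depth were among them, from -0.93 ± 0.15 for mt-Co1 to -1.77 ± 0.15 for mt-Cytb (SE), as were mt-Nd3 and mt-Nd4l. The 4 that did not pass were mt-Co2 (-0.0045), mt-Co3 (0.038), mt-Atp8 (-0.20) and mt-Atp6 (-0.97), which lie next to each other in the run with nuclear copies. On the TPM scale 11 of 13 passed as lower, where all genes gave 8217 higher and 10752 lower, against 9905 higher and 8679 lower in the count fit. The rRNAs differed most, with -4.91 ± 0.13 for mt-Rnr1 and -4.53 ± 0.11 for mt-Rnr2 (SE, edgeR adjusted p = 1.58e-09 and 1.45e-09). In liver against brain the count fit also called the tRNAs mt-Tc, mt-Te, mt-Tl1, mt-Tn, mt-Tp and mt-Ts1 higher, beside 34.4% of all genes. They ran from 1.43 for mt-Tl1 to 2.88 for mt-Tp. For mt-Th there were 3 to 10 counts in control brains, against 10 to 19 in control livers, and for mt-Tq 5 to 7, against 11 to 26. These tRNAs passed the filter on low counts through liver alone, so their direction was fixed by it. On log2(TPM + 0.5) the differences of mt-Tp (1.05) and mt-Ts1 (0.77) passed, while mt-Te had 0.18, mt-Tn 0.11, mt-Tc 0.045 and mt-Tl1 -0.41. In control testes mt-Tp had 56 to 96 counts, against 4166 to 5350 counts in control livers and 1153 to 1501 counts in control brains (-6.42 ± 0.25 against liver and -3.53 ± 0.22 against brain, log2, SE). Several other tRNAs passed the filter on low counts through liver or brain alone, such as mt-Ts1 with 0 to 2 counts in control testes, against 47 to 67 counts in control livers. Their direction was then fixed by the filter, and their number is not given. With animal as a block, mt-Tl1 was no longer called in liver against brain or testis against liver (edgeR adjusted p = 0.0792 and 0.0594), and no other call on a mitochondrial gene between tissues changed. Each tissue comparison shares its libraries with another, and all 3 share the same animals, so the 3 are not independent.

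The stress difference itself was not shown to differ between tissues for any mRNA. The edgeR interaction test called 0 of 13 for liver minus brain, where it called 0.195% of all genes, 0 for liver minus testis, where it called 0.154%, and 0 for brain minus testis, where it called 0% of 22391 genes. With animal as a block the calls over all genes were 2 in place of 37, 16 in place of 33 and 0, and no mRNA was called. Unadjusted p was under 0.05 for 1 mRNA in the first, beside 11.6% of all genes, mt-Co3 at -1.27 ± 0.52 (SE), and for none in the other 2, beside 13.9% and 9.43% of all genes, and neither DESeq2 nor limma called any. For mt-Nd6 the difference of effects between liver and brain was -0.17 ± 0.22 (SE), and for mt-Nd5 it was -0.018 ± 0.19.

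Nuclear genes that transcribe, process and translate mitochondrial RNA were examined as 4 lists. None of their members passed in any tissue, and their counts at an unadjusted p under 0.05 are to be read against the shares of all genes given above (17.2, 7.54 and 11.7% for liver, brain and testis). In liver, 23 genes of mitochondrial transcription and DNA maintenance had 12 higher and 11 lower values (median 0.0018, 3 at an unadjusted p under 0.05). The lowest p values belonged to Twnk, the mitochondrial DNA helicase (0.50 ± 0.13, SE, edgeR adjusted p = 0.0827), Exog (0.78) and Rnaseh1 (-0.45). Of 31 genes of mitochondrial RNA processing and turnover, 16 had higher and 15 lower values (median 0.0081, 2 at an unadjusted p under 0.05), led by Rexo2 (0.33), an oligoribonuclease, Nsun2 (0.30), an RNA methyltransferase, and Fastkd1 (0.31). Of 13 regulators of mitochondrial biogenesis tested, 5 were higher and 8 lower (median -0.046, 1 under p of 0.05), led by Gabpa (-0.36), Sirt1 (-0.32) and Gabpb1 (-0.27). Of 13 genes listed as translation factors 11 were higher and 2 lower (median 0.13, 1 under p of 0.05), led by Letm1 (0.26), Gfm2 (0.30) and Mss51 (0.75).

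In brain the transcription list had 10 higher and 13 lower values (median -0.051, 1 at an unadjusted p under 0.05), led by Mterf1b (0.74), Mterf3 (-0.21) and Twnk (0.33). The processing list had 12 higher and 19 lower (median -0.0083, 2 under p of 0.05), led by Trub2 (-0.26), Nsun3 (-0.47) and Mtpap (-0.25), the mitochondrial poly(A) polymerase. Biogenesis regulators were led by Ppara (0.53), Esrrg (-0.31) and Tfeb (0.29), with 10 of 14 higher, and translation factors by Tufm (0.17), Mtrf1 (-0.40) and Gfm2 (-0.21), with 7 of 13 higher. Beside their counts, 2 regulators and 4 translation factors were under an unadjusted p of 0.05. The adjusted p of every gene named here for brain was at least 0.602.

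In testis the transcription list was led by Mterf3 (-0.45), Lonp1 (0.37) and Mterf2 (-0.34), with 12 higher and 11 lower, and the processing list by Fastkd3 (-0.48), Slirp (0.54) and Nsun3 (-0.41), with 11 higher and 20 lower. Regulators were led by Esrra (0.37), Sirt3 (0.31) and Gabpa (-0.29), with 9 of 14 higher. The genes listed as translation factors were led by Tsfm (0.33), Mtif2 (-0.21) and Letm1 (0.12), with 5 of 13 higher. Unadjusted p was under 0.05 for 2 genes of the transcription list, 5 of the processing list, 3 regulators and 0 translation factors. The lowest adjusted p among these genes was 0.422. No listed pseudogene was called either. Values were lower for 10 of 10 in stress livers (median -0.26), 5 of 10 in stress brains (median -0.036) and 8 of 10 in stress testes (median -0.34). Of them 1 had an unadjusted p under 0.05, Gm28437 in liver, the copy of mt-Co3, at -0.62 ± 0.17 (SE, edgeR adjusted p = 0.0978). The list holds the chromosome 1 copies described above, whose reads inside a match cannot be told apart from those of the mRNAs. Their values may thus not be independent of the mRNA values. It also holds Gm10221, Gm10288 and Gm11808, which matched no mitochondrial transcript.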

How the data were processed

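RNA libraries came from a stranded total RNA kit, per the labels, and reads were placed on build mm39, per the submitters' processing notes. Not given in the sources used here: aligner, counter, strand setting and annotation release. Raw counts, TPM and FPKM per gene were deposited by the authors for 18 libraries. Symbols were matched for all but 570 of the 34932 genes.

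Counts were tested with edgeR 4.0.16 in R 4.3.3 (TMM, filterByExpr, quasi-likelihood test, Benjamini-Hochberg over all genes tested, threshold 0.05), within the libraries compared. DESeq2 1.42.0 and limma 3.58.1 on log2(TPM + 0.5) or log2(TPM + 0.1) were alternatives, and the fit was tested on simulated data. TPM and shares of counts described levels. Symbols and sequences came from GENCODE M21 (GRCm38), another build than mm39, so no coordinates are printed. Sample codes give each replicate number of a treatment 1 animal across tissues, so animal was a block in an alternative for each comparison between tissues. Nothing else says that replicates were separate animals, and p-values measure the spread between these libraries. All mRNAs and rRNAs are named, tRNAs where called (stress values of mt-Tp and mt-Te were chosen after they were seen), and of each list of nuclear genes the 3 with the lowest p. Members and lists were chosen with earlier results of these data known. Stress and control libraries share numbers but no animal. Same-numbered ones deviated together in brain (r = 0.229, 0.295 and 0.475) but not in every pair of liver or testis, so pairing in brain is read from the same libraries, not from the labels.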

Additional observations from a re-analysis of the deposited data

How the results depend on the processing

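Across the alternatives the count of called mitochondrial mRNAs kept its side of the threshold except as follows. In stress against control liver, where edgeR called 0, DESeq2 called 2, the fit without a filter on low counts called 3 (mt-Co3, mt-Nd5 and mt-Nd6), and replicate number as a block called 1, mt-Nd6 (adjusted p = 0.0313). In brain DESeq2 called 2. In control liver against control brain, limma on TPM called 2 of 13 with either pseudocount. Under limma with pseudocounts 0.5 and 0.1 the log2 differences of mt-Nd3 (-0.44 and -0.44), mt-Nd5 (-0.092 and -0.092) and mt-Tl1 (-0.41 and -0.42) turned negative in that comparison. The cause was not tested. Leaving out each library in turn gave 0 called mRNAs in every stress and interaction fit, 13 in both liver comparisons of controls, and 9 to 10 in testis against brain. The control comparison of testis and brain gave 7 calls in the stress libraries. Counts summed with nuclear copies, an alternative chosen after seeing the data, changed no count of calls.

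Over all genes, calls in liver numbered 232 with edgeR, 856 with DESeq2, 858 without the filter, 475 with the replicate block, 892 with all 18 libraries in 1 fit, 132 with limma and 31 to 291 with 1 library left out. In brain they numbered 1, against 137 with DESeq2, 22 with the block, 2 without the filter and 3 in the fit of 18. In testis they numbered 4, against 61 with DESeq2, 25 without the filter, 6 with the block, 6 in the fit of 18 and 2 or 0 with limma. For interactions (liver minus brain, liver minus testis, brain minus testis) edgeR called 37, 33 and 0, DESeq2 568, 717 and 95, the fit without the filter 123, 134 and 8, the fit of 18 libraries 101, 164 and 0, and the block 2, 16 and 0. The median log2 fold change of the mRNAs with 1 library left out ran from -0.47 to -0.25 in liver, from -0.39 to -0.057 in brain and from -0.80 to -0.19 in testis. The block numbers pair libraries in brain by the data alone, and they changed no other count of called mRNAs. Over the alternatives that kept all libraries, the adjusted p of mt-Nd6 in liver ran from 0.000671 to 0.441 and that of mt-Nd5 from 0.00175 to 0.248, at log2 fold changes of -0.79 to -0.71 and -0.58 to -0.50. In brain those of mt-Nd6 ran from 0.00363 to 1 and those of mt-Nd5 from 0.0031 to 0.923. In liver, the adjusted p of mt-Te ran from 0.0036 to 0.172.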
